A study of Mus musculus with 8 samples.

Results

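The genes described here encode the machinery that makes proteins inside mitochondria, as read in hearts of ARE-/- and WT mice. Members were chosen by name: symbols of mitochondrial ribosomal proteins (Mrpl and Mrps with a number), symbols of mitochondrial tRNA synthetases (a letter followed by ars2), and 22 named factors of initiation, elongation, release, tRNA modification, mRNA stability and transcription. Of 117 protein-coding mouse genes that carry such a name in RefSeq, 34 stood in the authors' deposited gene table, which lists 4820 of 19606 genes tested. The table lists a gene only where the authors' DESeq2 comparison gave an adjusted p under 0.05. The other 83 genes are not listed under the names of the rule and, apart from Gatb and Mterf3, which stand under older symbols and are described below, have no known direction here. The 34 had to differ between groups to be listed.

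The study sequenced total RNA of whole hearts from 4 ARE-/- and 4 WT mice, all male, C57B6/J and 20 to 25 weeks old. What ARE stands for is not written in the labels, and it is taken here as the AU-rich element of Ifng, the gene of interferon gamma, whose deletion from both gene copies makes the transcript longer lived. With 4 hearts counted per group in the study's design, libraries were treated as individual mice. A whole heart holds cardiomyocytes, fibroblasts, endothelial cells, leukocytes and blood, and in such tissue fewer cells of a type and less RNA per cell cannot be told apart.

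Mitochondria carry a small genome of their own, and the mRNAs it encodes are translated by a dedicated ribosome in the matrix. The ribosomal RNAs and tRNAs of that ribosome come from the mitochondrial genome, but every protein of its large and small subunits, every tRNA synthetase and every translation factor is encoded in the nucleus and imported. The products are core subunits of the respiratory chain and of ATP synthase, so heart muscle, which lives mainly on oxidative metabolism, depends heavily on this system.

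Library totals were worked back from the deposited counts, FPKM and gene lengths, and are thus the totals behind the authors' FPKM. They ran from 13416171 to 19432098 counted reads in ARE-/- hearts and from 14321679 to 17129012 in WT hearts. Ifng had 103, 37, 27 and 61 reads in ARE-/- replicates 1 to 4, against 0, 3, 0 and 1 reads in WT replicates 1 to 4. ARE-/- replicate 1 and WT replicate 3 stood apart from the other libraries of their groups. Counts of fallen and risen members are given with and without them. Some single members also have a value without ARE-/- replicate 1. Of 12 cardiomyocyte markers 8 were listed and all 8 fell, with a summed level of 353605 to 533840.1 normalised counts in ARE-/- hearts and 688792 to 975031 in WT hearts. Of 12 macrophage and monocyte markers 9 were listed and all 9 rose, with a summed level of 41205 to 56733 normalised counts in ARE-/- hearts and 7406 to 12095 in WT hearts. Of 12 T and NK cell markers 11 were listed and rose, summing to 2094 to 2707 normalised counts in ARE-/- hearts and 236 to 513 in WT hearts. All 6 red cell markers fell, and sums for ARE-/- hearts of 116736 to 442149 lay below the 730333 to 874332 of WT hearts. None of these listed markers was at 0 in a whole group. Of 8 fibroblast markers 3 were listed and rose, and of 8 endothelial markers 1 rose and 1 fell. The sums cover listed markers only, which had to differ between groups to be listed. How far these differences in marker transcripts, or a change in cell content, enter the results below was not tested.

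Transcripts of mitochondrial translation were lower in ARE-/- hearts in nearly all listed cases. Of the 34 listed members 32 fell and 2 rose. The authors called 24.6% of all tested genes, 11.8% as fallen and 12.8% as risen, and the 34 listed make up 29.1% of the 117 genes of the rule, so the share of the machinery that was called at all lay close to the background. The 32 fallen make up 27.4% of the 117, against 11.8% of all genes tested, and the 2 risen make up 1.71%, against 12.8%. The median log2 difference of the 34, taken between group means of log2(normalised count + 0.5) as ARE-/- minus WT, was -0.64, against 0.44 over all 4820 listed genes. Falls were moderate: 4 members fell at least 2-fold, 15 fell between 1.5-fold and 2-fold, and 13 fell by less than 1.5-fold. Among listed genes of all kinds that fell, the median was -1.02, against -0.66 for the 32 members that fell. In 31 of the 34 members (91.2%) the 4 ARE-/- values lay wholly to one side of the 4 WT values, against 81.5% of all listed genes.

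The direction was shared by the libraries, and the number of calls was not stable when libraries were dropped. Median values of the 34 members relative to the WT mean were -0.59, -0.58, -0.61 and -0.66 in ARE-/- replicates 1 to 4, against 0.10, 0.05, -0.13 and 0.01 in WT replicates 1 to 4 (log2 scale). In an edgeR quasi-likelihood refit of the listed genes without both libraries that stood apart, 32 members fell and 2 rose. Refits without ARE-/- replicate 1 gave 32 fallen and 2 risen, and without WT replicate 3 they gave 27 fallen and 0 risen. Without ARE-/- replicate 2, 3 or 4 the fallen numbered 20, 19 and 19, and without WT replicate 1, 2 or 4 they numbered 18, 19 and 19, with 0 risen in each case. In all of these refits 32 members lay below 0, and at an unadjusted p under 0.05 each gave 32 fallen and 2 risen. The members were listed for differing in these same libraries, so the directions and unadjusted counts were close to fixed beforehand. With scaling by library totals 13 members were called as fallen and 2 as risen, and with scaling by trimmed means 32 and 0, with 2 risen at an unadjusted p under 0.05. The trimmed means were taken over the listed genes alone. All of these were listed for differing between groups, so that scaling can itself move with the differences. A call held in every refit without 1 library for 17 members: Rmnd1, Lrpprc, Ptcd3, Mtif2, Guf1, Hars2, Nars2, Mrpl9, Mrpl18, Mrpl41, Mrpl46, Mrpl48, Mrpl50, Mrps9, Mrps17, Mrps31 and Mrps35.

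The size of the difference also moved with the base composition of transcripts. The longest transcripts of the 34 members had a median GC content of 46.2%, against 50% for all listed genes and 47.3% for listed genes that fell. Across the 34 members the Spearman correlation of GC content with the log2 difference was 0.39, and across 4791 listed genes it was 0.19, with all values taken from the same 8 libraries. Offsets that remove each library's trend with GC content were fitted on listed genes with a mean of at least 50 normalised counts. All of these genes were listed for differing between groups, so the offsets can also remove part of that difference. With these offsets the median of the members was -0.27, against 0.01 over all listed genes. Past the threshold of edgeR 12 members fell and 1 rose. In that refit 27 members lay below 0 and 7 above. Values with these offsets are given below beside each member, and how far GC content accounts for the differences was not tested.

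**Figure D1:**
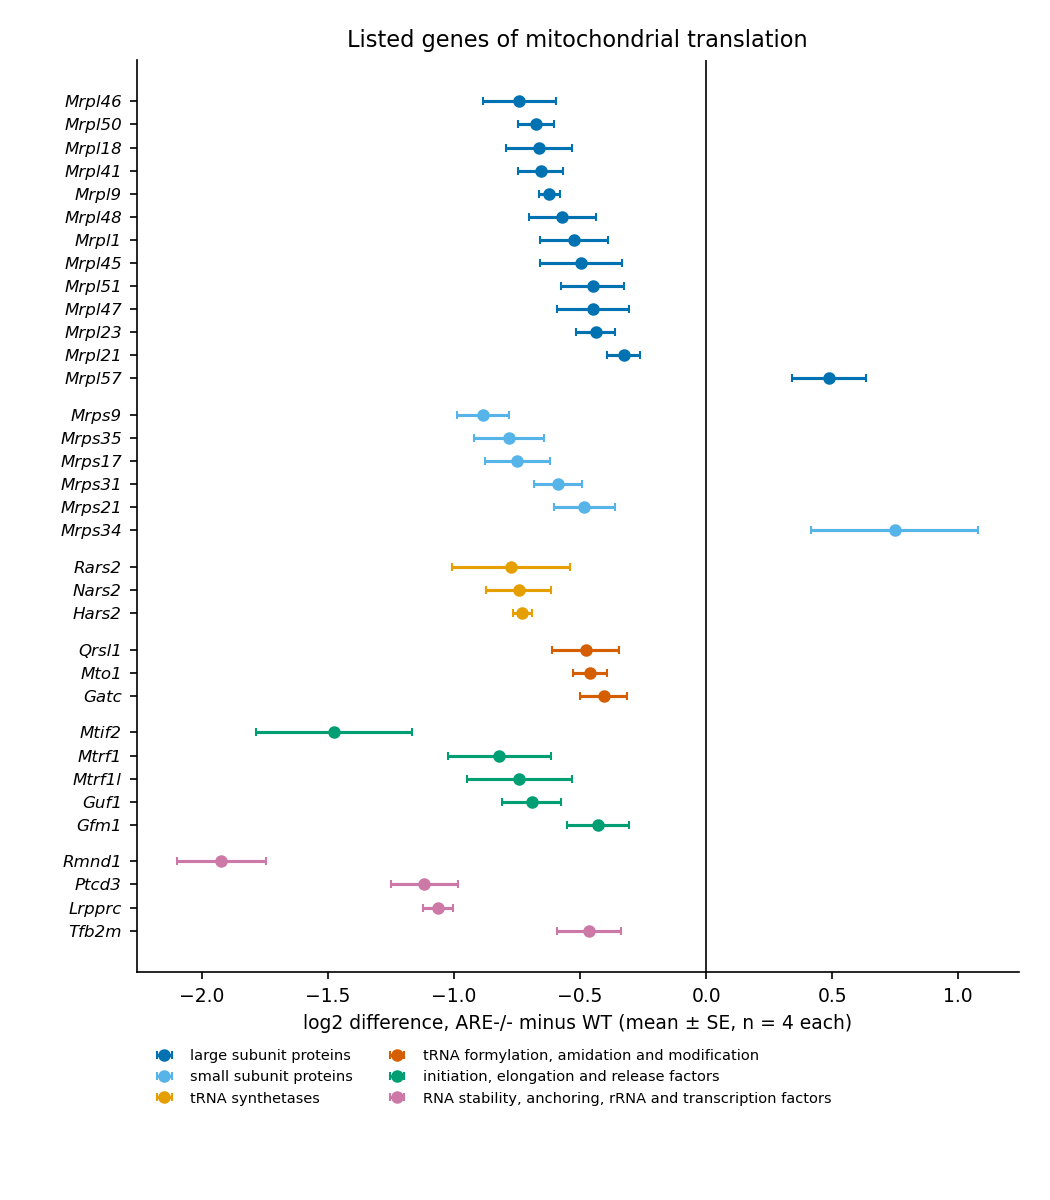
Log2 difference (ARE-/- minus WT, horizontal axis) of each of the 34 listed members, grouped and coloured by role, with points at the mean and bars of 1 SE from 4 libraries per group. Values run from -1.92 for Rmnd1 to 0.75 for Mrps34, and only Mrpl57 and Mrps34 lie to the right of 0.

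Promoters are shown for the members with the largest falls, for a ribosomal protein with repeated matches and for the risen Mrpl57, because the members moved together and nuclear genes of mitochondria are known to be driven in part by the transcription factors NRF1 and the ETS family member GABP. Windows run from 250 bases before to 50 bases after the start of the gene, in RefSeq's GRCm38.p6. The member windows used here number 33 and come from 30 members. Guf1, Hars2, Mrps34 and Mrps35 are not among these members, and Hars2 was set aside by a filter. Both strands were searched for NRF1 (GCGCA, any base, GCGC), ETS (CCGGAAG), ERR (TCAAGGTCA), YY1 (AAGATGGCG), and the interferon-related GAS (TTCNNNGAA) and ISRE (TTTC, any 2 bases, TTTC) motifs, where N is any base. Capitals mark each match.
Rmnd1, chr10:4432339-4432638, reverse strand: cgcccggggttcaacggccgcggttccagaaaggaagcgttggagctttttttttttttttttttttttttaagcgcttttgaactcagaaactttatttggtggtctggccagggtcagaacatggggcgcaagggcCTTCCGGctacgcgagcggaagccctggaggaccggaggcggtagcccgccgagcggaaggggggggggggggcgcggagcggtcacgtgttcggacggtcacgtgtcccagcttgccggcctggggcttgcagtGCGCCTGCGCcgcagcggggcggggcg
Mtif2, chr11:29526147-29526446, forward strand: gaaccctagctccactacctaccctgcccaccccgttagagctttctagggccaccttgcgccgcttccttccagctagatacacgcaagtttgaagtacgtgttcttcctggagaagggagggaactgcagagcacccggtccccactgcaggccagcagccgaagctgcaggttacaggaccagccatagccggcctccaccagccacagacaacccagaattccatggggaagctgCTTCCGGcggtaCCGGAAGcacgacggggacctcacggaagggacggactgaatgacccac
Ptcd3, chr6:71908713-71909012, reverse strand: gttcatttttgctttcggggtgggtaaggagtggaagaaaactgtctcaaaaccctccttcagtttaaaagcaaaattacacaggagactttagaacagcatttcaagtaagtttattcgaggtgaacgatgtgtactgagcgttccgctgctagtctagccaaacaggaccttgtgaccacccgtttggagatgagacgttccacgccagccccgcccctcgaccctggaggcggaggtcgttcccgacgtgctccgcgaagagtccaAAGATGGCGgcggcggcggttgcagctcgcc
Lrpprc, chr17:84790737-84791036, reverse strand: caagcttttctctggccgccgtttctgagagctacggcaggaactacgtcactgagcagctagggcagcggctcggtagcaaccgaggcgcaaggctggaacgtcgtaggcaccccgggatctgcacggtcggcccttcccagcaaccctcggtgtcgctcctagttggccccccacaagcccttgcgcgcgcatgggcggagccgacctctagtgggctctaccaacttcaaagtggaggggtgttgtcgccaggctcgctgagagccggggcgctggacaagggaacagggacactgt
Mrps9, chr1:42850983-42851282, forward strand: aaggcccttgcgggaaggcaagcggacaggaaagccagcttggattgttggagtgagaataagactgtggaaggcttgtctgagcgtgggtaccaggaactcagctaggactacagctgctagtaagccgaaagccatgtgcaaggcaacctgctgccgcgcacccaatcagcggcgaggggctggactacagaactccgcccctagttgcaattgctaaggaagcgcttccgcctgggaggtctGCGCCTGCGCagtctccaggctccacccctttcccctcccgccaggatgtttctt
Mrpl45, chr11:97315466-97315765, forward strand: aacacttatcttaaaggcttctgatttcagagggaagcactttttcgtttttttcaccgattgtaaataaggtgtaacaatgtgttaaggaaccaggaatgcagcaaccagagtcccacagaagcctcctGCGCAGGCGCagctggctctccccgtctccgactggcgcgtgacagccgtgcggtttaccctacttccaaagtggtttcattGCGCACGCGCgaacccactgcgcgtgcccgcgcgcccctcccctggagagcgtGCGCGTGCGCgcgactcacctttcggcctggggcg
Mrpl57, chr14:57825989-57826288, forward strand: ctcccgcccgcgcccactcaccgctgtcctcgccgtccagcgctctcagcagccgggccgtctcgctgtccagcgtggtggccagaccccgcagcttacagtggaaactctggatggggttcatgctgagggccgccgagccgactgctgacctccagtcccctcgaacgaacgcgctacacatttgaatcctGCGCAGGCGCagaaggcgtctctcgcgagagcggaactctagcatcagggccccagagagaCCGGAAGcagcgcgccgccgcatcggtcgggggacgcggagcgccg

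Rmnd1 holds an ETS match and, past its start, an NRF1 match. Mtif2 holds a pair of ETS matches around its start, Ptcd3 a YY1 match past its start, Mrps9 an NRF1 match at its start and Mrpl45 NRF1 matches at 3 places. Mrpl57, which rose, holds NRF1 and ETS matches like those of members that fell. Lrpprc holds no match to the letters searched. NRF1 letters occurred in 6 of 33 member windows (18.2%), against 4.60% of all 32851 windows of this length and 8.42% of the 2031 windows of listed genes that fell. The filter that set Hars2 aside was applied to the member windows only, not to these comparison windows. ETS letters occurred in 10 of 33 (30.3%), against 8.86% of all windows and 12.3% of those of fallen genes. GAS letters were found in 2 of 33 windows (6.06%), those of Mrpl50 and Nars2, against 8.30% of all windows, and ISRE letters in 1 (3.03%), that of Mrps21, against 3.44%. ERR letters were found in 1 window, that of Mtrf1l, against 0.423% of all windows, and YY1 letters in 2, against 1.40%. Member windows had a median GC content of 58.3%, against 52.7% for all windows, and a match is a description of letters, not a site.

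Of the 4 members that fell at least 2-fold, Rmnd1, Lrpprc and Ptcd3 belong to the factors that anchor the mitochondrial ribosome, keep its mRNAs or handle its RNA, and Mtif2 to the initiation factors. Rmnd1 (ENSMUSG00000019763, chr10:4401915-4432388 in mm10, reverse strand), an inner membrane protein known to hold the ribosome near the places where mRNAs mature, had 169, 107, 119 and 109 normalised counts in ARE-/- replicates 1 to 4, against 513, 509.7, 393 and 482 in WT replicates 1 to 4. All ARE-/- libraries lay far below all WT libraries, and ARE-/- replicate 1 was the highest of its group. The mean level fell by 73.6%, a log2 difference of -1.92 ± 0.18 (SE, n = 4 each; -2.07 without ARE-/- replicate 1), with an adjusted p of 1.1e-18 by DESeq2 in the authors' deposited table. It stood at -1.51 with GC offsets, still past the threshold of edgeR. Its reads are uncertain, since 1522 bases of its transcript match the transcript of Gm5512 at 99.5% identity.

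Lrpprc (ENSMUSG00000024120, chr17:84705247-84790789, reverse strand) encodes an RNA-binding protein that, with its partner Slirp, which was not listed, stabilises mitochondrial mRNAs. It had 886, 777, 828 and 830.1 normalised counts in ARE-/- replicates 1 to 4, against 1895, 1666, 1705 and 1677 in WT replicates 1 to 4. The groups were far apart and tight, with WT replicate 1 the highest of the 8. The log2 difference was -1.06 ± 0.06 (SE, n = 4 each) and the authors' deposited table gives an adjusted p of 2.1e-18 (DESeq2), with -0.69 under GC offsets, past the threshold of edgeR.

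Ptcd3 (ENSMUSG00000063884, chr6:71880648-71908762, reverse strand), a pentatricopeptide repeat protein of the small ribosomal subunit, had 816, 567, 649 and 596 normalised counts in ARE-/- replicates 1 to 4, against 1509.8, 1252, 1499 and 1404 in WT replicates 1 to 4. Groups did not overlap, and ARE-/- replicate 1 lay closest to WT. The log2 difference was -1.12 ± 0.13 (SE, n = 4 each), with an adjusted p of 4.7e-10 in the authors' deposited table (DESeq2) and -0.47 under GC offsets, past the threshold of edgeR. Tfb2m, which helps the mitochondrial RNA polymerase start transcription, had 648, 480.0, 549 and 466 normalised counts in ARE-/- replicates 1 to 4, against 716, 763, 810.3 and 651 in WT replicates 1 to 4. ARE-/- replicate 1 nearly reached the lowest WT library. Its log2 difference of -0.46 ± 0.13 (SE, n = 4 each; authors' adjusted p 0.0272, DESeq2) turned to 0.17 under GC offsets, and 1187 bases of its transcript match the pseudogene Gm1818 at 99.3% identity. Of the 6 genes of the rule with such roles 4 were thus listed under the names used by the rule. These make up 66.7%, against 24.6% of all genes tested, and all fell, with a median of -1.09.

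Factors that start, drive and end translation were listed in 5 of 9 cases (55.6%, against 24.6% of all genes tested). All 5 fell, with a median of -0.74. Mtif2 (ENSMUSG00000020459, chr11:29526408-29545279, forward strand), which brings the initiator tRNA to the ribosome, had 488, 185, 223 and 236 normalised counts in ARE-/- replicates 1 to 4, against 786, 735, 701 and 707 in WT replicates 1 to 4. ARE-/- replicate 1 lay between the other ARE-/- libraries and WT. The log2 difference was -1.48 ± 0.31 (SE, n = 4 each; authors' adjusted p 3.4e-05, DESeq2), -1.78 without ARE-/- replicate 1, and -0.90 with GC offsets, past the threshold of edgeR.

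Guf1, a GTPase related to bacterial elongation factor 4, had 319.7, 253, 231 and 268 normalised counts in ARE-/- replicates 1 to 4, against 477, 444, 408 and 397 in WT replicates 1 to 4. The groups did not overlap, and ARE-/- replicate 1 was the highest of its group. The log2 difference of -0.69 ± 0.12 (SE, n = 4 each; authors' adjusted p 3.2e-04, DESeq2) turned to 0.05 under GC offsets, and an exon of it overlaps Gnpda2 on the opposite strand by 953 bases. Gfm1, the elongation factor that moves the ribosome along the mRNA, stood at -0.43 ± 0.12 (authors' adjusted p 0.0292, DESeq2) and at 0.01 under GC offsets.

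Both listed members of the release factor family fell. Mtrf1 had 154, 99.6, 131 and 98.6 normalised counts in ARE-/- replicates 1 to 4, against 165, 213, 257 and 215 in WT replicates 1 to 4. Mtrf1l, which frees finished chains at stop codons, had 161, 112, 127 and 80.9 in ARE-/- replicates 1 to 4, against 192, 199, 184 and 208 in WT replicates 1 to 4. In each case the highest ARE-/- library, replicate 1, stayed just under the lowest WT library. The log2 differences were -0.82 ± 0.20 and -0.74 ± 0.21 (SE, n = 4 each), with adjusted p of 0.00314 and 0.0146 in the authors' deposited table (DESeq2). Under GC offsets they stood at -0.34 and -0.39, not past the threshold of edgeR.

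**Figure D2:**
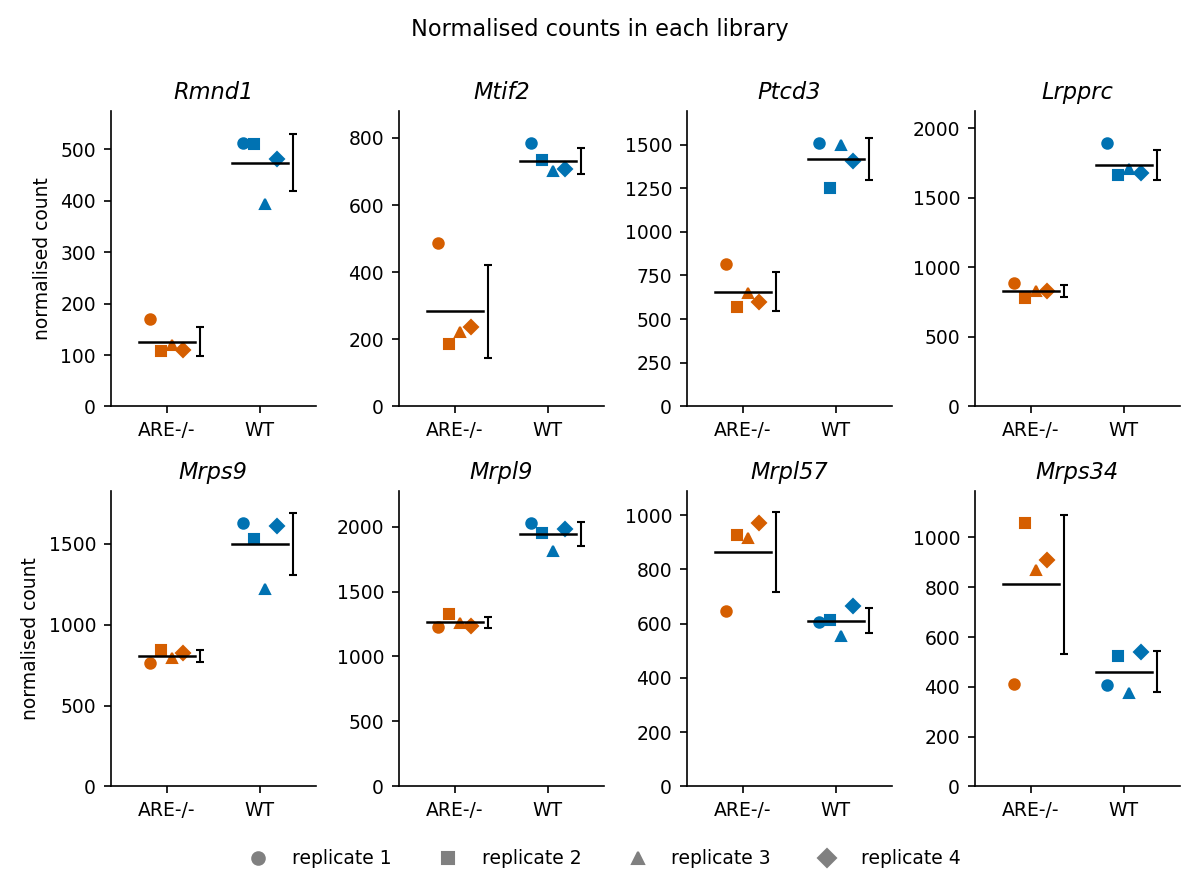
Normalised counts (vertical axis, from 0) of 8 members in each library, ARE-/- left of WT, with 1 marker shape per replicate number, a line at the mean and a bar of 1 SD (n = 4 each). Rmnd1, Mtif2, Ptcd3, Lrpprc, Mrps9 and Mrpl9 are lower in every ARE-/- library than in any WT library, while Mrpl57 and Mrps34 are higher in ARE-/- replicates 2 to 4 and within the WT range in replicate 1.

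Large subunit proteins were listed in 13 of 49 cases (26.5%, against 24.6% of all genes tested). Of the 13 listed, 12 fell and 1 rose, with a median of -0.52 and none fallen 2-fold. Mrpl9 had 1230.5, 1326, 1257 and 1238 normalised counts in ARE-/- replicates 1 to 4, against 2029, 1948, 1815 and 1985 in WT replicates 1 to 4. The libraries of each group lay close together and the groups far apart. The log2 difference was -0.62 ± 0.04 (SE, n = 4 each; authors' adjusted p 5.7e-08, DESeq2), and -0.28 with GC offsets, not past the threshold of edgeR. Its transcript overlaps exons of Oaz3 on the opposite strand.

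Mrpl50, Mrpl41 and Mrpl46 belong to the proteins that mitochondrial ribosomes have and bacterial ribosomes lack. Mrpl50 had 715, 632, 678 and 618 normalised counts in ARE-/- replicates 1 to 4, against 1121, 1109, 955 and 1038 in WT replicates 1 to 4. Mrpl41 had 997, 1203, 1154 and 1111 in ARE-/- replicates 1 to 4, against 1894, 1898, 1563 and 1692 in WT replicates 1 to 4. Mrpl46 had 499.5, 473, 407 and 439.9 in ARE-/- replicates 1 to 4, against 820.4, 876, 584 and 790.4 in WT replicates 1 to 4. All 3 had groups that did not overlap, and WT replicate 3 was the lowest WT library each time. Log2 differences were -0.67 ± 0.07, -0.66 ± 0.09 and -0.74 ± 0.14 (SE, n = 4 each), with adjusted p of 1.7e-06, 1.2e-05 and 1.6e-04 in the authors' deposited table (DESeq2). GC offsets put Mrpl50 at -0.03, not past the threshold of edgeR, and moved Mrpl41 to -1.01 and Mrpl46 to -1.17, both past it.

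The other fallen large subunit genes ran from -0.66 in Mrpl18 to -0.33 in Mrpl21 on the log2 scale. Between them lay Mrpl48 (-0.57), Mrpl1 of the stalk where spent tRNA leaves (-0.52), Mrpl45, which tethers the ribosome to the inner membrane (-0.50), Mrpl51 (-0.45), Mrpl47 (-0.45) and Mrpl23 near the exit of the peptide tunnel (-0.44). Adjusted p in the authors' deposited table ran from 3.7e-04 for Mrpl18 to 0.0391 for Mrpl47 (DESeq2), of all members the closest to the listing threshold. Groups overlapped in Mrpl47 alone among the fallen members, where 419 normalised counts in ARE-/- replicate 1 exceeded 393 in WT replicate 3, and its exons overlap those of Ndufb5 and Actl6a on the opposite strand. With GC offsets Mrpl18 stood at -0.69, Mrpl23 at -0.998 and Mrpl21 at -0.81, all past the threshold of edgeR, whereas Mrpl51, Mrpl1 and Mrpl47 stood at 0.10, 0.13 and 0.08. Mrpl48 stood at -0.06 and Mrpl45 at -0.49 with these offsets, neither past the threshold of edgeR.

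Mrpl57 (ENSMUSG00000021967, chr14:57826239-57828745, forward strand), a small protein specific to the mitochondrial ribosome, went the other way. It had 646, 926, 915 and 971 normalised counts in ARE-/- replicates 1 to 4, against 607, 613, 554 and 666 in WT replicates 1 to 4. ARE-/- replicates 2 to 4 were above every WT library, and ARE-/- replicate 1 lay within the WT range. The mean was 865 ± 148 in ARE-/- and 609.7 ± 45.9 in WT (SD, n = 4 each). The log2 difference was 0.49 ± 0.15 (SE; 0.62 without ARE-/- replicate 1), and the authors' deposited table gives an adjusted p of 0.0189 (DESeq2). It stood at 1.13 with GC offsets, past the threshold of edgeR, and its call was lost with scaling by trimmed means and in each refit without 1 library other than ARE-/- replicate 1.

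Small subunit proteins were listed in 6 of 29 cases (20.7%, against 24.6% of all genes tested), with 5 fallen, 1 risen and a median of -0.67. Mrps9, a core protein of the subunit, had 765, 844, 793 and 822 normalised counts in ARE-/- replicates 1 to 4, against 1629, 1529, 1218 and 1609.5 in WT replicates 1 to 4. The 4 ARE-/- libraries sat close together, and WT replicate 3 was the lowest of WT. The log2 difference of -0.88 ± 0.10 (SE, n = 4 each; authors' adjusted p 1.0e-08, DESeq2) was the largest fall among the Mrpl and Mrps genes listed, and it stood at -0.16 under GC offsets, not past the threshold of edgeR.

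Mrps35 had 576, 742, 673 and 707 normalised counts in ARE-/- replicates 1 to 4, against 1367, 1248, 947 and 1104 in WT replicates 1 to 4. Mrps17, a homologue of a bacterial ribosomal protein, had 465, 380.4, 335 and 361 in ARE-/- replicates 1 to 4, against 709.9, 627, 555 and 692 in WT replicates 1 to 4. Mrps31, like Mrps35 specific to the mitochondrial ribosome, had 352, 465, 408 and 445 in ARE-/- replicates 1 to 4, against 653, 645, 592 and 608 in WT replicates 1 to 4. The groups of these 3 genes did not overlap, with ARE-/- replicate 1 lowest of its group in Mrps35 and Mrps31 and highest in Mrps17. Log2 differences were -0.78 ± 0.14, -0.75 ± 0.13 and -0.59 ± 0.10 (SE, n = 4 each), with adjusted p of 3.6e-05, 1.1e-04 and 5.7e-04 in the authors' deposited table (DESeq2). GC offsets brought them to -0.20, -0.18 and -0.02, none past the threshold of edgeR. Mrps21, the member with the highest level per length in both groups, stood at -0.48 ± 0.12 (authors' adjusted p 0.00852, DESeq2) and at -0.90 under GC offsets, past the threshold of edgeR.

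Mrps34 (ENSMUSG00000038880, chr17:24895116-24897502, forward strand), a mitochondria-specific protein needed for a stable small subunit, rose. It had 411, 1059, 868 and 911 normalised counts in ARE-/- replicates 1 to 4, against 407, 523, 376 and 539 in WT replicates 1 to 4. ARE-/- replicates 2 to 4 were the highest of all 8 libraries, while ARE-/- replicate 1 lay inside the WT range. The log2 difference of 0.75 ± 0.33 (SE, n = 4 each; authors' adjusted p 0.0207, DESeq2) grew to 1.05 without ARE-/- replicate 1 and turned to -0.03 under GC offsets, and its call was lost with scaling by trimmed means and in each refit without 1 library other than ARE-/- replicate 1. Its transcript had the highest GC content of the members, 59.9%, and its exons overlap Nme3 on the same strand by 289 bases and Mapk8ip3 on the opposite strand by 971 bases, so its reads are uncertain.

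**Figure D3:**
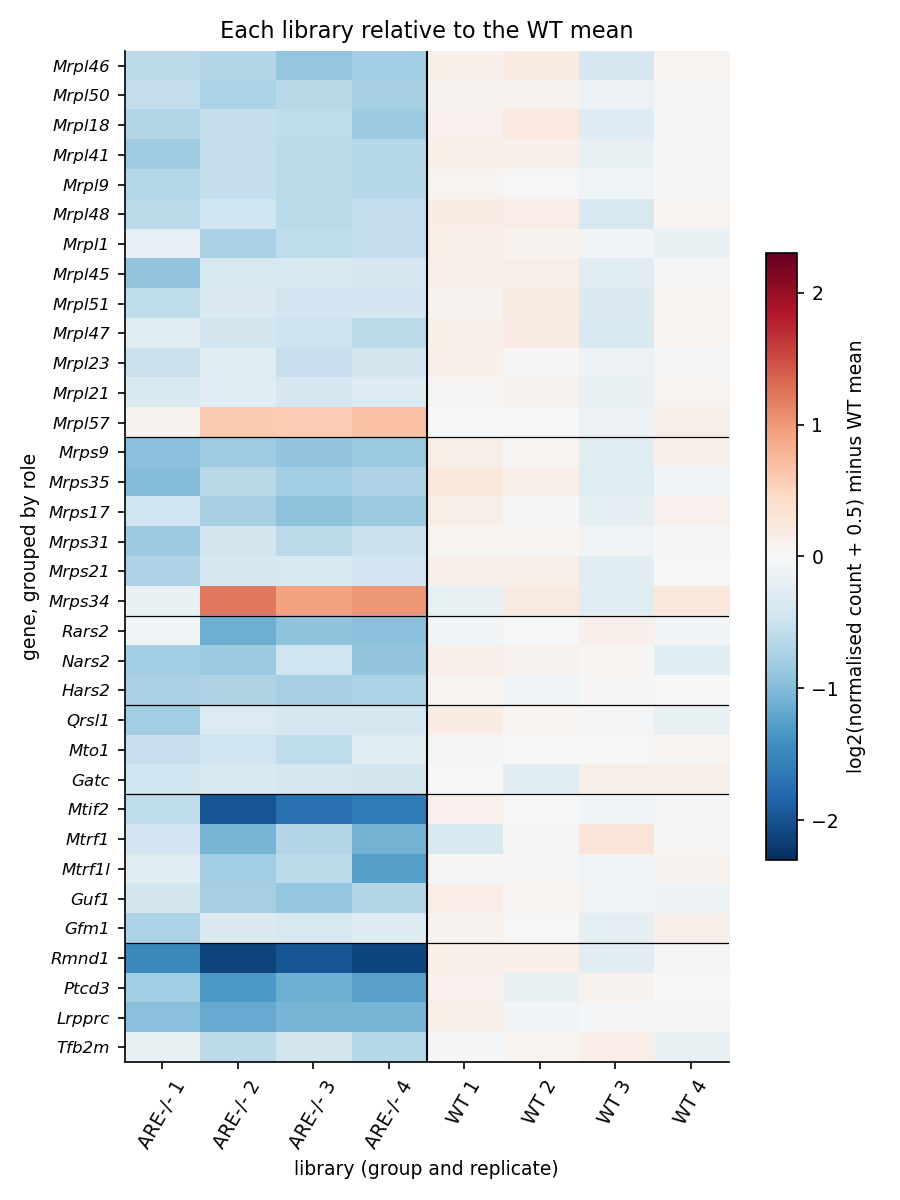
Each listed member (rows, grouped by role) in each library (columns, ARE-/- left of WT), as log2(normalised count + 0.5) minus the WT mean, blue below and red above it. Rmnd1 and Mtif2 are the darkest blue in ARE-/- replicates 2 to 4, Mrpl57 and Mrps34 are red there, and ARE-/- replicate 1 differs from its group in both directions.

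Enzymes that charge mitochondrial tRNAs were listed in 3 of 17 cases (17.6%, against 24.6% of all genes tested), all fallen, with a median of -0.74. Hars2, which charges tRNA with histidine, had 164, 170.1, 162 and 167 normalised counts in ARE-/- replicates 1 to 4, against 288, 257, 279.8 and 276 in WT replicates 1 to 4. Nars2, the asparagine enzyme, had 94.0, 90.6, 119 and 86.5 in ARE-/- replicates 1 to 4, against 175, 171, 167 and 138 in WT replicates 1 to 4. Rars2, the arginine enzyme, had 276, 135, 155 and 151 in ARE-/- replicates 1 to 4, against 281, 297, 318 and 282 in WT replicates 1 to 4. Hars2 was the most even of the 3 across libraries, while Rars2 in ARE-/- replicate 1 came within a few counts of the WT libraries. Log2 differences were -0.73 ± 0.04, -0.74 ± 0.13 and -0.77 ± 0.23 (SE, n = 4 each), with adjusted p of 4.6e-06, 0.00149 and 0.0207 in the authors' deposited table (DESeq2). Without ARE-/- replicate 1 Rars2 stood at -1.001. Under GC offsets they stood at -0.42, -0.19 and -0.19, and Hars2 alone passed the threshold of edgeR. Hars2 exons overlap those of Hars, its cytosolic counterpart, on the opposite strand.

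Genes that finish or modify tRNAs were listed in 3 of 7 cases (42.9%, against 24.6% of all genes tested), all fallen, with a median of -0.46. Qrsl1 and Gatc encode parts of the amidotransferase that completes the glutamine tRNA. Qrsl1 had 222, 313, 296 and 293 normalised counts in ARE-/- replicates 1 to 4, against 437, 401, 376 and 345 in WT replicates 1 to 4. Gatc had 219.9, 239, 231 and 228 in ARE-/- replicates 1 to 4, against 303, 255, 332 and 334 in WT replicates 1 to 4. The groups were separate by a narrow margin in each. Mto1, which helps modify the wobble base of several tRNAs, had 162, 171, 156 and 193 in ARE-/- replicates 1 to 4, against 226, 235, 236 and 241 in WT replicates 1 to 4. Log2 differences were -0.48 ± 0.13, -0.41 ± 0.09 and -0.46 ± 0.07 (SE, n = 4 each), with adjusted p of 0.0292, 0.0337 and 0.0168 in the authors' deposited table (DESeq2). With GC offsets they stood at -0.26, -0.32 and -0.53, and Mto1 alone passed the threshold of edgeR.

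A pair of rows in the table carry the gene identifiers of Gatb and Mterf3 under older symbols and stand outside the counts above. Pet112, now Gatb, is the third part of that amidotransferase and stood at -0.90 ± 0.17 (authors' adjusted p 2.1e-05, DESeq2), from 478 ± 59.5 normalised counts in ARE-/- and 899.9 ± 167 in WT (SD, n = 4 each). Mterfd1, now Mterf3, which acts in transcription and ribosome assembly, stood at -0.71 ± 0.22 (authors' adjusted p 0.031, DESeq2), with overlapping groups. Counting both, 36 of 117 genes (30.8%) were listed and 34 fell.

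Levels per length spanned the members widely, from 1.75 FPKM in ARE-/- and 2.54 FPKM in WT for Nars2 to 187 FPKM in ARE-/- and 229 FPKM in WT for Mrps21. In WT hearts the large subunit genes had a median of 35.4 FPKM, the small subunit genes 20.8, the RNA factors 20.5, the tRNA modification genes 10.0, the translation factors 6.75 and the tRNA synthetases 4.88. FPKM is scaled by library totals, and on that scale the median log2 difference of the 34 members was -0.44, against 0.64 over all listed genes. The members' summed level was 957, 925, 846 and 846 FPKM in ARE-/- replicates 1 to 4, against 1187, 1165, 1019 and 1166 FPKM in WT replicates 1 to 4. WT replicate 3 was the lowest WT library and still above every ARE-/- library.

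Of a list of 73 other nuclear genes of mitochondrial gene expression 18 were listed (24.7%), close to the 24.6% of all genes tested. Of the 18 listed, 16 fell and 2 rose, with a median of -0.63. The transcription genes Tfam, which packs mitochondrial DNA (-0.54 ± 0.05), Tefm, an elongation factor (-0.51 ± 0.09), and Mterfd3, now Mterf2 (-0.83 ± 0.11), were among the fallen. So were the small subunit protein gene Dap3 (-0.59 ± 0.16), the ribosome recycling factor Mrrf (-0.62 ± 0.06), the rRNA methyltransferase Nsun4 (-0.64 ± 0.14) and the tRNA methyltransferase Trmt5 (-0.80 ± 0.12). The RNA-binding protein Grsf1 (-0.43 ± 0.07) and all 4 listed FASTK family genes, from -0.39 in Fastkd2 to -0.84 in Fastkd5, fell as well. Metap1d, which trims the first methionine of new chains, had the smallest adjusted p of the 18 in the authors' deposited table, 6.0e-08 (DESeq2), at -0.84 ± 0.08. The remaining fallen genes were Gtpbp10, Mettl15 and Rpusd4, which act in ribosome or rRNA maturation. Groups overlapped in Gtpbp10, with 251 normalised counts in ARE-/- replicate 1, against 237 in WT replicate 4. Elac2, which cuts tRNA ends (0.65 ± 0.27), and Mpv17l2, an inner membrane protein of ribosome assembly (1.00 ± 0.32), rose, with overlapping groups in both. With GC offsets 12 of the 18 lay below 0, 4 of them past the threshold of edgeR, and the median was -0.23. With scaling by library totals all 16 fallen genes stayed below 0, but 5 were called as fallen and 2 as risen. Refits without 1 library called 8 to 16 of the 18 as fallen, with 8 without WT replicate 1, 9 without WT replicate 2 and 10 without ARE-/- replicate 4.

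The listed mRNAs that this machinery translates were lower too. Of 13 mitochondrially encoded protein genes 11 were listed (84.6%, against 24.6% of all genes tested). All 11 fell, with a median of -0.77 and a range from -1.32 in mt-Nd6 to -0.56 in mt-Nd5. The median GC content of these 11 transcripts was 37.1%, and with GC offsets 6 of the 11 lay below 0 and 5 above, their median was -0.03 and 0 passed the threshold of edgeR, with 2 fallen at an unadjusted p under 0.05. With scaling by library totals 7 of the 11 were called as fallen, and refits without 1 library called 8 or 9. In WT hearts mt-Nd3, mt-Atp6, mt-Co3 and mt-Co2 had means of 80.4 to 441 FPKM, and the other listed genes 8662 FPKM or more. Copies of these mitochondrial genes elsewhere in the genome were not searched for. Listed genes of cytosolic translation mostly went up. Of 84 cytosolic ribosomal protein genes 16 were listed, and 15 rose and 1 fell, with a median of 0.53. They included 0.55 in Rps3 and 0.73 in Rps7, and the fallen Rps29 (-0.88) had overlapping groups. With GC offsets 14 of the 16 lay above 0, 9 of them past the threshold of edgeR, and the median was 0.496. With scaling by trimmed means 15 lay above 0 and 9 were called as risen. Refits without 1 library called 7 to 15 of the 16 as risen, with 7 without WT replicate 4, 8 without WT replicate 1, 9 without ARE-/- replicate 2 and 10 without ARE-/- replicate 3, ARE-/- replicate 4 or WT replicate 3. Of 20 cytosolic tRNA synthetases 5 were listed (25.0%). Wars stood at 2.26 ± 0.23, Sars, Aars and Vars between 0.61 and 0.76, and Eprs at -0.78. Groups overlapped in Aars, Vars and Eprs. Refits without 1 library called 2 to 4 of the 5 as risen, with 4 only without ARE-/- replicate 1. The median of these 5 was 0.72, and 0.02 with GC offsets. Listed ribosomal protein transcripts for the cytosol were more abundant per length than those for the mitochondrion, with medians of 428 FPKM for the listed cytosolic genes and 35.4 FPKM for the listed large subunit genes in WT hearts. Whether the mitochondrial and cytosolic lists differ was not tested, and genes of both lists were chosen by the same threshold.

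**Figure D4:**
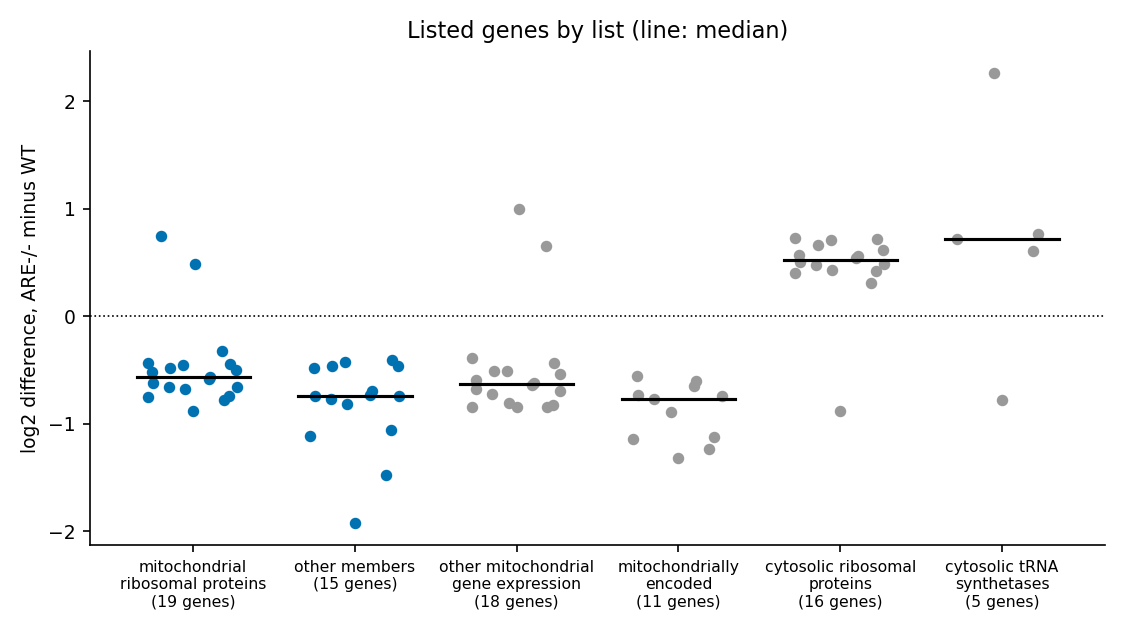
Log2 difference (ARE-/- minus WT, vertical axis) of listed genes in 6 lists, 1 point per gene and a line at the list's median. The mitochondrial lists sit mostly below 0 and the 16 cytosolic ribosomal protein genes mostly above it, with Rps29 the exception.

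In the authors' deposited table of Gene Ontology terms, 20 of the 34 members stood among the 74 genes credited to the term mitochondrial matrix (authors' adjusted p 0.00544). Of the 2065 terms in it, 0 carried mitochondrial translation, mitochondrial ribosome or mitochondrial gene expression in their names.

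Read assignment limits some of these values. Exons of 14 members overlap an exon of another annotated gene, and Mrpl41, Mrps21, Mrpl21, Mrpl48 and Mrpl51 have near-identical pseudogene transcripts, as Rmnd1 and Tfb2m have copies, so 18 members in all have reads that counting could split. The sources used here do not say whether counting used strand. The other 16 members comprise Mrpl57, which rose, and 15 that fell, among them Lrpprc, Mtif2 and Mrps9.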

How the data were processed

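Total RNA of 8 mouse hearts was sequenced with paired ends. The submitters' processing notes name STAR, DESeq2 and mm10 without versions, and no source used here names the counter. The deposited table holds raw read counts per gene and FPKM computed by the authors, per the file headers. Its group columns hold the authors' mean normalised signal, from which each library's size factor was solved. The log2 fold changes and p-values are the authors' (DESeq2), per the file headers. A second deposited table gives the authors' p-values and gene counts of ontology terms.

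Normalised counts are counts divided by these size factors. Differences are means of log2(normalised count + 0.5), with SE from 4 libraries. The authors' calls (adjusted p under 0.05) were the result, because only called genes are listed. Refits of the 4820 listed genes with edgeR 4.0.16 (quasi-likelihood, with limma 3.58.1) or DESeq2 1.42.0 in R 4.3.3, adjusted as if 19606 genes were tested, were alternatives. Only the edgeR fit with the authors' size factors was run on simulated counts. The DESeq2 refit, the other scalings, the GC offsets and the replicate block were not. Nothing but the count of animals shows the libraries to be independent, so p-values measure the spread between these samples. Members, lists and alternatives were chosen with earlier results of these data known. Values per library are given for up to 4 members of each role by the authors' adjusted p and for members that moved against the rest. GC content came from the longest GENCODE vM21 transcript, overlaps from its exons, and copies from BLAST 2.17.0 (at least 95% identity over 200 bases). Promoters came from RefSeq GRCm38.p6.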

Additional observations from a re-analysis of the deposited data

Results flagged for a closer look

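In 4 of the 68 groups of 4 libraries examined among the 34 members, a library lay far from the other 3 of its group, where chance flags about 1 in 20. Lrpprc had 1895 normalised counts in WT replicate 1, the highest of the WT libraries. ARE-/- replicate 1 was the highest of its group in Mtif2, at 488 normalised counts, and in Rars2, at 276, and the lowest of its group in Mrpl45, at 712.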

How the results depend on the processing

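The 32 falls and 2 rises kept their direction under every scaling, library omission and fit tried other than GC offsets. All of these settings reused the libraries by which the members were listed, so a kept direction is weak evidence. Fallen members past the threshold numbered 31 by edgeR and 32 by DESeq2, 20 at an adjusted p under 0.01, 19 at a minimum of 1.5-fold, 13 with library totals and 12 with GC offsets. Risen members numbered 0 with trimmed mean scaling, 1 with GC offsets, 0 at an adjusted p under 0.01 and 1 at 1.5-fold. Leaving out single libraries gave 18 to 32 fallen and 0 to 2 risen, with medians of -0.70 to -0.60. The median was -0.77 with trimmed means, -0.44 with library totals, -0.44 with FPKM and -0.27 with GC offsets, while the median of all listed genes was 0.31, 0.64, 0.64 and 0.01 in that order. Risen genes made up 42.1% of all calls with trimmed means and 70.7% with library totals, against 52.1% in the authors' calls. GC offsets reversed Tfb2m (0.17), Guf1 (0.054), Gfm1 (0.013), Mrpl51 (0.10), Mrpl1 (0.13), Mrpl47 (0.081) and Mrps34 (-0.033), and the cause was not tested. With the replicate block 21 members fell and 1 rose past the threshold. Same-numbered libraries correlated between -0.18 and 0.25, against -0.29 to 0.24 for libraries of different numbers. These values show no pairing by number, but they cannot exclude that mice were paired. Of 34 members, 8 kept direction and call under all 17 settings tried for single genes. Settings with a minimum mean count of 50, a pseudocount of 5, FPKM or the authors' log2 fold change kept the authors' adjusted p. No call could be lost in those settings. Depth limits little here, since all members had at least 81 reads in every library.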
